A study of Mus musculus with 2 samples.

Results

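Inflammatory chemokines and cytokines of microglia were described across the cells of the mouse hippocampus, together with 2 feedback regulators of the transcription factor NF-kB. The members are the chemokine ligands Ccl2, Ccl3, Ccl4, Ccl7 and Ccl12, the cytokines Tnf, Il1a and Il1b, and the regulators Nfkbiz and Nfkbia. They were chosen by name, with earlier results of these data known, and all 10 are among the 12744 genes listed for both libraries. Chemokines are small secreted proteins that draw leukocytes along a gradient through receptors on the migrating cell. Tnf and interleukin 1 bind receptors that activate NF-kB, and NF-kB in turn switches on these ligands and its own inhibitors, so that the response shuts itself off. Microglia, the resident macrophages of the brain, are known for making such ligands within minutes to hours of a stimulus, while border macrophages sit in the meninges, the perivascular space and the choroid plexus.

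The study profiled dissociated hippocampal cells of a mouse model of Fabry disease by droplet RNA sequencing, in which each transcript is counted as a unique molecular identifier (UMI) at its 3' end. The GlaKO library came from mice without working Gla, the gene of the lysosomal enzyme alpha-galactosidase A, and the wt library from their littermates. Both groups were 57 weeks old, were perfused with saline under ketamine and xylazine, and had their hippocampi dissociated with the same enzyme kit, cleared of debris on a density gradient and sorted with the viability dye 7-AAD. How the Gla allele was made, and the number, sex and pooling of the animals behind a library, are not stated in the labels. There was 1 library per genotype, so no difference between genotypes could be tested. Genotype and library cannot be told apart, and each 95% interval below covers counting error only and takes UMIs as independent.

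The GlaKO library held 29914106 UMIs over 4572 barcodes, and the wt library 31929688 UMIs over 5443 barcodes. Gla itself had 220 UMIs in the GlaKO library and 396 in the wt library, or 7.48 and 12.5 CPM (UMIs per 1000000 UMIs of the cells counted), so the transcript was lower but still counted under the GlaKO label. The libraries shared 6 barcodes. Clustering without the members, other inflammatory genes or immediate-early genes gave 722 microglia of 4513 cells in the GlaKO library and 440 of 5417 in the wt library, with median depths of 6424 and 5333.5 UMIs. The name fits the defining markers: P2ry12 had a UMI in 98.3% of GlaKO and 98.0% of wt microglia, Tmem119 in 96.8% and 96.1%, and the border marker Mrc1 in 0.139% and 0.909%. The border macrophages were 1 cluster of 48 GlaKO and 35 wt cells, with median depths of 5382 and 5673 UMIs. Of 12 border markers only Mrc1, Pf4, Ms4a7 and Stab1 were listed for both libraries, and Mrc1 had a UMI in 58.3% of the GlaKO and 68.6% of the wt cells of that cluster. Its leading genes were Cd74 and the MHC class II genes H2-Aa, H2-Ab1 and H2-Eb1, and the monocyte receptor Ccr2 had a UMI in 31.2% of its GlaKO and 31.4% of its wt cells, so the cluster was mixed. Unlike Mrc1, Stab1 did not set the classes apart. It had a UMI in 46.3% of GlaKO and 45.9% of wt microglia, and in 50.0% and 45.7% of border cells.

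The genes lie on 5 mouse chromosomes (GENCODE vM21, GRCm38, the same assembly as the mm10 build named in the submitters' processing notes). Ccl2 (chr11:82035571-82037453), Ccl7 (chr11:82045712-82047525) and Ccl12 (chr11:82101845-82103400) are neighbours on the plus strand, each with 3 exons. Ccl3 (chr11:83647844-83649355, minus strand) and Ccl4 (chr11:83662584-83664683, plus strand) form a second pair on the same chromosome, also of 3 exons each. Il1a (chr2:129299610-129309972) and Il1b (chr2:129364570-129371139) are paired on the minus strand of chromosome 2. Tnf is at chr17:35199381-35202007, Nfkbia at chr12:55489410-55492647 and Nfkbiz at chr16:55811375-55838899, all on the minus strand. No stretch of 50 bases in the last 500 bases of any member transcript was found in a transcript of another gene, so reads at the 3' ends of these paralogs can be told apart at that length. Ccl2, Il1a and Il1b each overlap a gene on the opposite strand (Gm17268, Gm14023 and Il1bos), and the strand setting of the counting is not given in the sources used here.

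RefSeq promoters (GRCm38.p6) were matched for 6 of the 10 members, Ccl3, Ccl12, Tnf, Il1a, Il1b and Nfkbia. The 250 bases before the start are shown for 3 members whose level was higher in microglia with more immediate-early transcripts and for Il1b. The summed level of Il1b was lower there, but not its share of wt cells with a UMI. Capitals mark matches to the NF-kB consensus, to the AP-1 motif TGANTCA and to the TATA box TATAAA, each searched on both strands. The Nfkbia window is chr12:55492648-55492897, minus strand, the Il1a window chr2:129309973-129310222, minus strand, the Tnf window chr17:35202008-35202257, minus strand, and the Il1b window chr2:129371140-129371389, minus strand.
Nfkbia: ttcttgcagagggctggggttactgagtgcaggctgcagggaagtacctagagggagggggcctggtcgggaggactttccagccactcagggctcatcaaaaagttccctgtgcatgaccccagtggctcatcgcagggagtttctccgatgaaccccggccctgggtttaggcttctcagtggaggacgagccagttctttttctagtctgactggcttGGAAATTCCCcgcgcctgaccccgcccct
Il1a: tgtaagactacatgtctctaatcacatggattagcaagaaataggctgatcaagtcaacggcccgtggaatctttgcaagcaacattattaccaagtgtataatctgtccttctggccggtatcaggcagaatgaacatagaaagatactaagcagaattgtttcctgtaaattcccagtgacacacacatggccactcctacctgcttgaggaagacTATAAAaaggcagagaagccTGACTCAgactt
Tnf: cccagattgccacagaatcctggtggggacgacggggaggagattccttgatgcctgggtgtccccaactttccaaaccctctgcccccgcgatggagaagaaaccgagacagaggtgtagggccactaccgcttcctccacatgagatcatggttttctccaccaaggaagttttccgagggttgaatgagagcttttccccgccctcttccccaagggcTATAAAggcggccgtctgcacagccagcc
Il1b: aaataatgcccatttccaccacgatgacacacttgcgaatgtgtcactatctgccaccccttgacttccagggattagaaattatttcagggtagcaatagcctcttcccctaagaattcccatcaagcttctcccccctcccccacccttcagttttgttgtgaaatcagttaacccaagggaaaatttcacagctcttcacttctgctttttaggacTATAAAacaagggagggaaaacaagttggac
TATAAA stood in the Il1a, Il1b, Tnf and Ccl12 windows, beginning between positions -32 and -29 from the start, and 12.4% of 32851 RefSeq promoter windows of that length held it somewhere. An AP-1 match lay in the Il1a window alone among the 6 (6.75% of all windows) and an NF-kB match in the Nfkbia window alone (7.25% of all windows), while TGACGTCA, the cAMP response element, was in none of the 6 (1.55% of all windows). A match is a string of letters and not evidence of binding, and nothing was measured here on binding.

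Microglia held most member transcripts, and some members had their highest level in border macrophages instead. Of all member UMIs, 86.1% of the GlaKO and 73.2% of the wt total lay in microglia, and 4.94% and 10.4% in the far fewer border macrophages. Among 9 classes with at least 30 cells in each library, Il1a, Tnf, Nfkbia and Ccl3 were highest in microglia in both libraries. Ccl2, Ccl7, Ccl12 and Il1b were highest in border macrophages in both libraries. Ccl4 and Nfkbiz were highest in microglia in the GlaKO library and in border macrophages in the wt library.

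The CCR2 ligands Ccl2, Ccl7 and Ccl12, which draw monocytes, were at low to moderate levels in microglia. Ccl2 had 490 UMIs in GlaKO and 271 in wt microglia, or 104 and 113 CPM, and a UMI in 17.3% and 13.4% of the cells. Ccl12, a CCR2 ligand of the mouse, had 1127 and 731 UMIs, or 239 CPM in GlaKO and 304 CPM in wt microglia, in 36.3% of GlaKO and 25.7% of wt cells. Oligodendrocytes, which should lack these genes and had median depths of 6700 UMIs in the GlaKO and 5818 in the wt library, showed Ccl2 in 0.747% and 0.353% of cells and Ccl12 in 0.972% and 0.589%, so the microglial shares lay far above the background of free RNA. Ccl7 was a different case: it had 95 UMIs in GlaKO and 8 in wt microglia, spread over only 6 and 4 cells, or 0.831% and 0.909% of microglia. That is close to its share in oligodendrocytes of the GlaKO library (0.448%), so in nearly all microglia Ccl7 was at background. No wt oligodendrocyte had a Ccl7 UMI.

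Ccl3 and Ccl4, ligands that draw T cells and monocytes, were among the main member transcripts of microglia. Ccl4 had 12413 UMIs in GlaKO and 5198 in wt microglia, or 2634 and 2163 CPM, with a UMI in 56.4% and 44.8% of cells. Ccl3 stood at 888 CPM in GlaKO and 784 CPM in wt microglia and had a UMI in 44.5% (exact 95% interval 40.8 to 48.2) and 37.7% (33.2 to 42.4) of cells. In oligodendrocytes the shares were 6.20% and 4.36% for Ccl4 and 3.14% and 1.06% for Ccl3. Ccl4, which cytotoxic T cells are known to secrete, was also present in T cells, at 782 CPM in 208 GlaKO and 871 CPM in 169 wt cells. Ccl3 in T cells was lower and uneven, at 39.2 CPM in the GlaKO and 167 CPM in the wt library, where 1 cell held 67.2% of its UMIs.

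Among the cytokines, Il1a was nearly private to microglia and Il1b was not. Il1a, an alarmin that is active without processing, had 4470 UMIs in GlaKO and 2099 in wt microglia, or 949 and 873 CPM, with a UMI in 76.9% and 71.6% of cells. These were 97.7% of all Il1a UMIs in the GlaKO library and 95.5% in the wt library, against 5 and 11 UMIs in border macrophages. Tnf was similar, at 550 CPM in GlaKO and 433 CPM in wt microglia, which held 95.5% and 90.9% of its UMIs. Il1b, whose product must be cut by caspase 1 before it signals, stood at 230 CPM in GlaKO and 227 CPM in wt microglia and had a UMI in only 15.5% and 13.4% of cells. The mixed cluster named border macrophages, though small, held 45.7% of all Il1b UMIs in the GlaKO and 52.2% in the wt library. Of its 944 GlaKO Il1b UMIs, 322 lay in cells with at least 3 border markers and 389 in cells with none. Of its 649 wt Il1b UMIs, 344 and 61 lay in such cells.

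Nfkbia encodes the inhibitor that holds NF-kB in the cytoplasm and is resynthesised when NF-kB is active, and Nfkbiz encodes a nuclear member of the same inhibitor family that is needed for a later set of NF-kB targets. Nfkbia was the most widely detected member in microglia, with a UMI in 89.8% of GlaKO and 81.1% of wt cells and levels of 2699 and 2257 CPM. It was also present outside the macrophages: oligodendrocytes had 148 CPM in the GlaKO and 224 CPM in the wt library, and 51.7% and 62.0% of them had a UMI. Nfkbiz had a UMI in 71.2% of GlaKO and 64.3% of wt microglia, at 711 and 592 CPM, against 5.46% and 2.94% of oligodendrocytes.

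**Figure D1:**
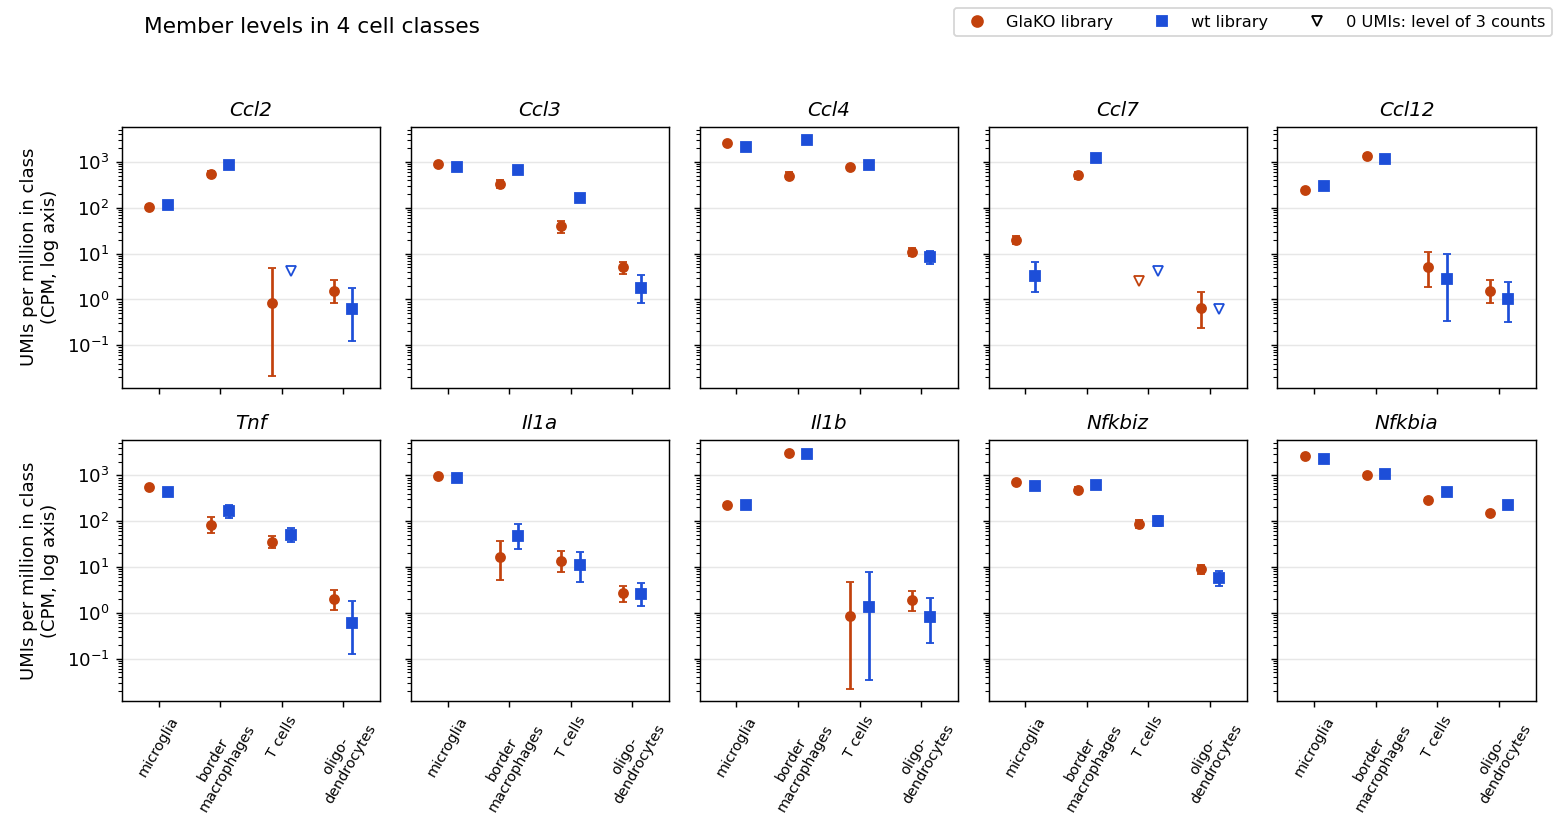
Level of each member in 4 cell classes, as CPM of the class on a log axis, for the GlaKO library (circles) and the wt library (squares), with exact 95% Poisson intervals and open triangles at the level of 3 counts where a class had 0 UMIs. Ccl2, Ccl7, Ccl12 and Il1b stand higher in border macrophages than in microglia in both libraries, Il1a and Tnf stand higher in microglia, and Ccl4 of T cells lies at 782 CPM in the GlaKO and 871 CPM in the wt library.

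The members were spread unevenly over microglia. With each cell thinned to 1000 UMIs, a depth that every microglial cell reached, a GlaKO cell held a median of 6 member UMIs and a wt cell 4, and the highest cell held 96 in the GlaKO and 124 in the wt library. No member UMI was found in 7.62% of GlaKO microglia (exact 95% interval 5.79 to 9.80) and in 17.3% of wt microglia (13.9 to 21.1). The top 10% of GlaKO cells, 72 cells, held 34.3% of member UMIs, and the top 10% of wt cells, 44 cells, held 42.6%. For the homeostatic genes of microglia the same shares were 16.3% in the GlaKO and 16.5% in the wt library, and for the immediate-early genes 18.3% and 20.3%. Both lists have more UMIs per cell than the members, which lowers such a share. The heat-shock genes, with a mean of 8.93 UMIs per thinned GlaKO and 7.72 per wt cell against 8.13 and 6.69 for the members, had 24.5% and 24.7%, also below the members in both libraries. Within-cluster shares were 33.0% in the GlaKO and 37.2% in the wt library for the largest microglial cluster alone.

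**Figure D2:**
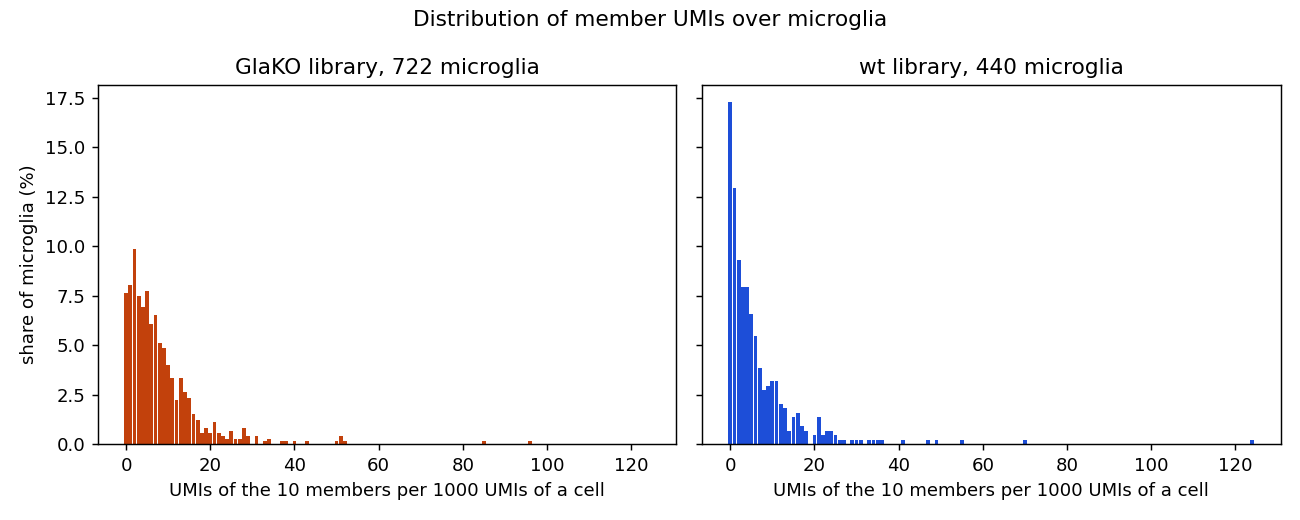
Share of microglia by the number of member UMIs among 1000 UMIs of a cell, for 722 GlaKO cells (left) and 440 wt cells (right). Most cells lie below 20 member UMIs, a few reach 96 in the GlaKO and 124 in the wt library, and the bar at 0 is 7.62% in the GlaKO and 17.3% in the wt library.

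Ccl4 had the highest variance over mean of the members in both libraries, a measure that grows with the mean level. This variance over mean per thinned cell, near 1 for random sampling of a steady level, was 11.8 in GlaKO and 18.3 in wt microglia, and the top 10% of cells held 59.4% and 75.2% of its UMIs. That share was 70.7% in GlaKO and 76.5% in wt microglia for Ccl3, and it was also higher for Ccl2, Ccl7, Ccl12 and Il1b than for Ccl4. Such a share rises as counts fall, and Ccl3 had 590 GlaKO and 332 wt thinned UMIs against 1831 and 909 for Ccl4. Ccl2, Ccl7 and Il1b were found in fewer than 10% of thinned cells, which fixes their share at 100%. The shares therefore do not show which member was gathered in fewer cells at equal counts. Ccl3 had a variance over mean of 5.03 in the GlaKO and 6.14 in the wt library, and Il1b, found in 8.17% and 6.36% of thinned cells, 3.61 and 3.26. Nfkbiz and Il1a lay lower, at 1.48 and 1.94 in the GlaKO and 1.29 and 2.33 in the wt library. The homeostatic gene P2ry12, a purinergic receptor, had 1.29 in the GlaKO and 1.47 in the wt library. Single cells carried large parts of some members without thinning: 5 cells held 28.3% of GlaKO and 50.5% of wt Il1b UMIs in microglia and 25.3% and 44.7% of Ccl12 UMIs, against 3.54% and 6.79% for Nfkbia.

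Ccl3 and Ccl4 were the most closely correlated pair. Of the thinned GlaKO microglia with Ccl3, 74.9% also had Ccl4, and 53.0% of those with Ccl4 had Ccl3. In wt microglia the shares were 68.9% and 54.9%. Spearman's correlation of the pair was 0.54 over 722 GlaKO cells and 0.54 over 440 wt cells, the highest of the 45 pairs in each library, whose median was 0.07 in the GlaKO and 0.15 in the wt library. Cells of a library share its depth and its dissociation, so these correlations describe the cells and carry no p-value. At most 8 GlaKO members and 9 wt members were detected in the same thinned cell, and 3 or more in 53.7% of GlaKO and 42.5% of wt microglia.

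A finer clustering from genes other than the members gathered the high cells. At resolution 2.0, a cluster of 94 GlaKO and 80 wt microglia had Spp1, Cd14, Il1b, Ccl3, Tnf, Il1a, Ccl4, Gpr84, Ccl12 and C5ar1 as its leading genes, although the members took no part in forming it. Ccl4 stood there at 6396 CPM in GlaKO and 4144 CPM in wt cells, against 1767 and 1310 CPM in the largest cluster of 498 GlaKO and 274 wt microglia. Il1b was at 856 and 742 CPM, against 96.6 CPM in GlaKO and 57.9 CPM in wt cells of the largest cluster. The summed homeostatic genes were lower in the high cluster, at 20055 CPM in GlaKO and 21703 CPM in wt cells, against 29843 and 30356 CPM. The summed immediate-early genes were close in GlaKO cells, at 53935 CPM against 52573 CPM. In wt cells they were higher in the high cluster, at 54513 CPM against 47795 CPM. Over all thinned microglia the summed members correlated negatively with the summed homeostatic genes, with a Spearman correlation of -0.27 in the GlaKO and -0.27 in the wt library.

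Immediate-early genes such as Fos, Junb and Egr1 encode transcription factors that appear within minutes of a stimulus. Across thinned microglia the summed members correlated with 24 summed immediate-early genes at 0.26 in the GlaKO library (722 cells) and 0.37 in the wt library (440 cells), and within the largest microglial cluster at 0.20 and 0.31. The members differed in this relation. Nfkbia correlated with the immediate-early genes at 0.38 in GlaKO and 0.41 in wt cells, Nfkbiz at 0.19 and 0.24, Il1a at 0.16 and 0.19 and Tnf at 0.07 and 0.21. The low GlaKO value of Tnf lay above the GlaKO values of the remaining members, the highest of which was 0.02 for Ccl12. It lay below the wt value of Ccl4, 0.09. The 5 chemokines and Il1b lay between -0.06 and 0.09 in both libraries. Heat-shock genes, another group that responds to handling stress, correlated with the summed members at -0.03 in the GlaKO and 0.06 in the wt library.

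Levels were also compared between tertiles of immediate-early UMIs, from all UMIs of the cells. Nfkbia stood at 3344 CPM in the upper and 1728 CPM in the lower tertile of GlaKO microglia, a 1.94-fold difference (95% interval 1.84 to 2.03), and at 3134 and 1195 CPM in wt microglia, 2.62-fold (2.43 to 2.83). Nfkbiz was 1.97-fold higher in the GlaKO and 2.59-fold higher in the wt library, Tnf 1.54-fold and 1.90-fold, and Il1a 1.29-fold and 1.54-fold, each with its interval above 1. Ccl4 differed little, at 1.12-fold in the GlaKO and 1.08-fold in the wt library, and Ccl3 had ratios of 0.96 and 0.71. Il1b went the other way: it stood at 162 CPM in the upper and 315 CPM in the lower tertile of GlaKO microglia, a ratio of 0.51 (0.44 to 0.60), and at 111 and 334 CPM in wt microglia, a ratio of 0.33 (0.26 to 0.42). From the UMIs of cells thinned to equal depth the Il1b ratio was 0.64 (0.42 to 0.98) in the GlaKO and 0.60 (0.27 to 1.30) in the wt library, so that the wt interval then included 1. Without thinning, 13.3% of upper and 17.4% of lower tertile GlaKO cells had an Il1b UMI, but 15.8% and 12.2% of wt cells. In wt microglia 5 cells held 50.5% of Il1b UMIs, and the counting intervals do not cover such a spread between cells. Ccl2 and Ccl12 were lower in the upper tertile of wt cells, with ratios of 0.43 and 0.57, whereas in GlaKO cells their ratios of 0.82 and 0.93 had intervals that included 1. At equal depth the wt ratios were 0.56 (0.27 to 1.13) for Ccl2 and 0.73 (0.44 to 1.18) for Ccl12, and these intervals included 1 as well. Without thinning, 14.4% of upper and 11.6% of lower tertile wt cells had a Ccl2 UMI, and 27.4% and 22.4% a Ccl12 UMI.

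Other measures moved along the same tertiles. The median depth was 6491.5 UMIs in the upper and 5332 UMIs in the lower tertile of GlaKO cells and 5453 and 4109 UMIs in wt cells. Summed heat-shock genes were 1.15-fold higher in the upper tertile in the GlaKO and 1.22-fold higher in the wt library, and summed homeostatic genes had ratios of 0.93 and 0.94. The part of depth and of these lists in the member ratios was not tested. The largest microglial cluster leaves out the 107 GlaKO and 68 wt cells of a shallow cluster and the 24 GlaKO and 18 wt cells of a small one. In the small one, summed immediate-early genes stood at 7071 CPM in GlaKO and 3513 CPM in wt cells, and Nfkbia at 426 and 189 CPM. Within the largest cluster the fold for Nfkbia was 1.61 in the GlaKO and 1.98 in the wt library, for Nfkbiz 1.62 and 1.98, and for Il1b 0.44 and 0.14. Tnf and Il1a stood there at 1.23 and 1.15 in the GlaKO and at 1.77 and 1.20 in the wt library.

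**Figure D3:**
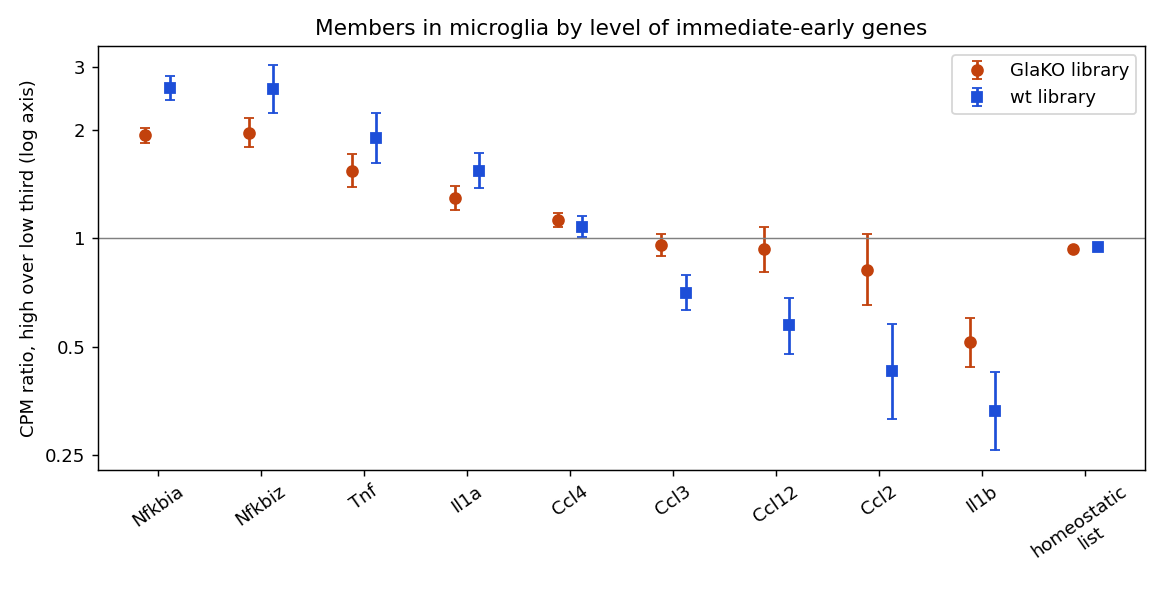
Ratio of member CPM in the upper over the lower tertile of microglia by immediate-early UMIs, on a log axis, for the GlaKO library (circles) and the wt library (squares), with exact 95% counting intervals and the summed homeostatic genes at the right. Nfkbia, Nfkbiz, Tnf and Il1a lie above 1 in both libraries, and Il1b lies below 1 at 0.51 in the GlaKO and 0.33 in the wt library. In wt microglia 5 cells held 50.5% of Il1b UMIs, a spread that the intervals do not cover. Ccl7 is not drawn because nearly all of its GlaKO UMIs lay in 2 cells.

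The genes whose pattern over thinned microglia was most like that of the summed members were ranked by the lower Spearman correlation of the 2 libraries among 570 genes found in at least 20% of microglia of each. The first 8 were Junb, Cd83, Egr1, Zfp36, Atf3, Bcl2a1b, Fos and Btg2. Junb, a subunit of AP-1, had correlations of 0.34 in the GlaKO and 0.42 in the wt library, and Cd83, a surface marker of activated myeloid cells, 0.33 and 0.35. Zfp36, which encodes a protein that speeds the decay of Tnf and other cytokine messages, had 0.27 in the GlaKO and 0.28 in the wt library. Btg2 closed the list at 0.20 and 0.32. The sum leans on 2 members: Ccl4 and Nfkbia had 1831 and 1670 of 5867 GlaKO and 909 and 812 of 2945 wt thinned member UMIs. Of these, Nfkbia correlated with the summed immediate-early genes at 0.38 in GlaKO and 0.41 in wt cells, and Ccl4 at -0.01 and 0.09. The ranking is thus not the pattern of each member.

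Border macrophages differed from microglia in which members they carried. In the GlaKO library Ccl2, Ccl7, Ccl12 and Il1b were at least 2-fold higher in border macrophages, and Ccl3, Ccl4, Tnf, Il1a and Nfkbia at least 2-fold lower. In the wt library the same 4 genes were higher, and Tnf, Il1a and Nfkbia were lower. Of all genes compared, 7.69% were 2-fold higher and 28.3% 2-fold lower in border macrophages of the GlaKO library (9865 genes), and 7.29% and 29.5% in the wt library (8727 genes). The 4 of 10 members that were higher thus exceeded the share of all genes in both libraries, while the lower members, 5 of 10 in the GlaKO and 3 of 10 in the wt library, were nearer to it. The classes of a library share its preparation, and no test was possible with 1 library per genotype.

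Il1b showed the most even contrast between libraries. It stood at 3059 CPM in border macrophages and 230 CPM in microglia of the GlaKO library, a log2 ratio of 3.73 (95% interval 3.61 to 3.86), and at 2870 and 227 CPM in the wt library, a log2 ratio of 3.66 (3.49 to 3.83). Ccl2 stood at 561 CPM in border macrophages and 104 CPM in microglia of the GlaKO library, a log2 ratio of 2.43, and at 845 and 113 CPM in the wt library, 2.90. Ccl12 had log2 ratios of 2.49 in the GlaKO and 1.94 in the wt library. Ccl7 was the member most restricted to border macrophages, with 158 UMIs in 48 GlaKO border cells and 273 UMIs in 35 wt border cells, or 512 and 1207 CPM. Its log2 ratios over microglia were 4.67 in the GlaKO and 8.50 in the wt library, and the denominators were 95 and 8 UMIs.

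Il1a gave the opposite picture, with 16.2 CPM in border macrophages and 949 CPM in microglia of the GlaKO library and 48.6 and 873 CPM in the wt library, log2 ratios of -5.87 and -4.17. Tnf had log2 ratios of -2.71 in the GlaKO and -1.37 in the wt library, and Nfkbia -1.42 and -1.09. Ccl3 and Ccl4 differed by library. Ccl4 stood at 505 CPM in border macrophages and 2634 CPM in microglia of the GlaKO library, but at 3038 and 2163 CPM in the wt library, with log2 ratios of -2.38 and 0.49. A single cell held 51.3% of the Ccl4 UMIs of GlaKO border macrophages, and without the top cell of each class the GlaKO ratio was -3.31. Nfkbiz was within 2-fold in both libraries, at -0.57 in the GlaKO and 0.05 in the wt library.

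**Figure D4:**
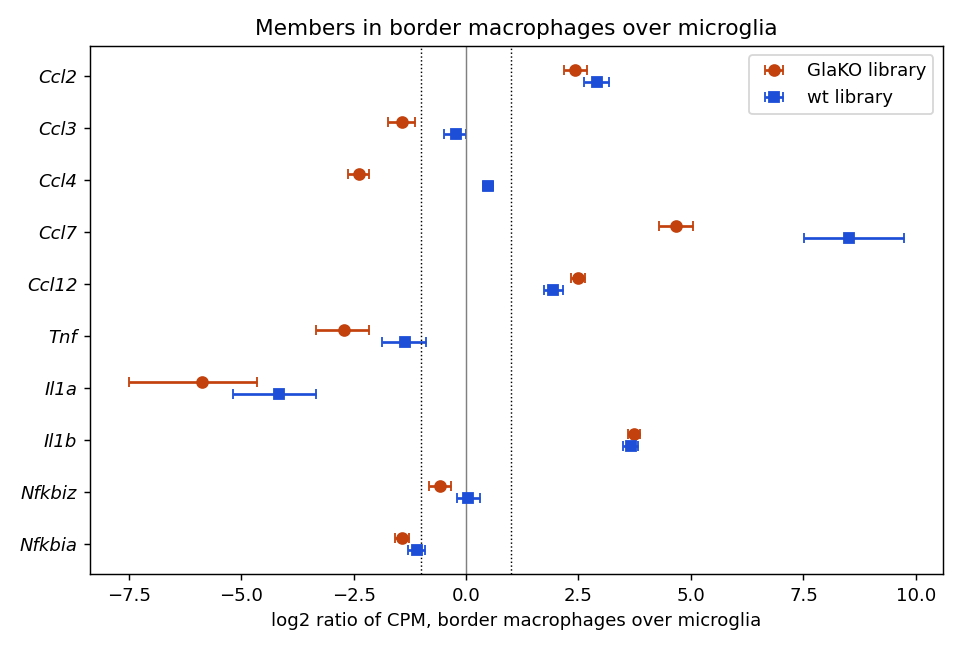
Log2 ratio of member CPM in border macrophages over microglia within the GlaKO library (circles) and the wt library (squares), with exact 95% counting intervals and dotted lines at 2-fold either way. Ccl2, Ccl7, Ccl12 and Il1b lie right of the upper line in both libraries, and Tnf, Il1a and Nfkbia left of the lower line, while Ccl4 lies at -2.38 in the GlaKO and 0.49 in the wt library.

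Within the border cluster the CCR2 ligands were higher in cells with border markers in both libraries, and Il1b in the wt library only. Cells with at least 3 of the markers Mrc1, Pf4, Ms4a7 and Stab1 numbered 24 in the GlaKO and 19 in the wt library, and cells with none of them 17 and 4. Of these markers Stab1 was about as frequent in microglia, with a UMI in 46.3% of GlaKO and 45.9% of wt cells. Ccl12 stood at 3591 CPM in GlaKO and 1679 CPM in wt cells with at least 3 markers, Ccl7 at 1367 and 2611 CPM and Ccl2 at 1462 and 1689 CPM. In cells without a marker Ccl7 and Ccl12 had 0 UMIs in both libraries, and Ccl2 had 3 GlaKO and 2 wt UMIs. Il1b was at 2787 CPM in GlaKO and 3339 CPM in wt cells with at least 3 markers, and at 3008 CPM in GlaKO and 1268 CPM in wt cells without a marker. The cells without a marker carried Ccr2 at 232 CPM in the GlaKO and 374 CPM in the wt library, whereas Ccr2 had 1 UMI in each library among the cells with at least 3 markers. The values given for border macrophages as a whole therefore mix cells with and without border markers, in different proportions in the 2 libraries.

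In the GlaKO library the border contrast changed when cells of high doublet score were left out before clustering. Of the GlaKO border cells 17 of 48, and 11 of the 24 with at least 3 markers, had a doublet score in the top 4% of their library, against 3 of 35 and 2 of 19 in the wt library. With such cells left out and the rest clustered and named anew, Ccl2 and Ccl12 had log2 ratios over microglia of -1.63 and -0.23 in the GlaKO library. Only Ccl7 (1.12) and Il1b (3.44) stayed at least 2-fold higher. The parts of the lost cells and of the new clustering in this change were not separated. In the wt library the ratios of Ccl2 and Ccl12 were then 2.55 and 0.95. Median doublet scores were alike in the libraries, at 0.070 in GlaKO and 0.081 in wt border cells, against 0.015 and 0.018 in microglia. Whether these GlaKO cells are doublets was not tested.

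Between genotypes most members were slightly higher in microglia of the GlaKO library. Of the 10 members, 8 were higher and 2 lower in GlaKO microglia, with a median log2 ratio of GlaKO over wt of 0.22, against -0.02 over the 7130 genes compared. The counting interval lay above equal levels for 7 members, against 7.41% of all genes, and below for 1 member, against 8.64%. The differences were small: 1 member, Ccl7, was at least 1.5-fold higher and 0 were 1.5-fold lower, against 2.38% and 1.43% of all genes. Intervals narrow with depth, and most members are well counted, so the share with an interval above equal levels is no measure of size.

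**Figure D5:**
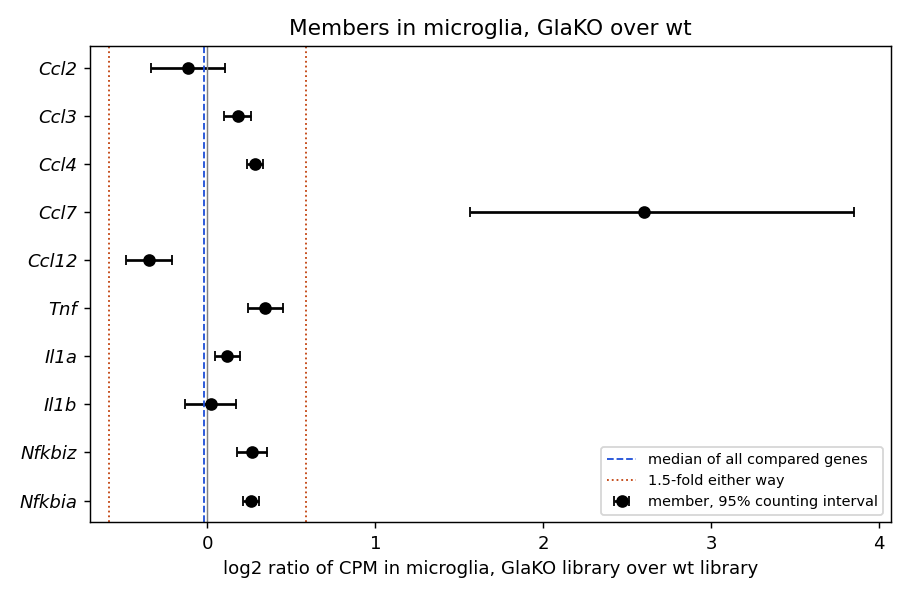
Log2 ratio of member CPM in microglia, GlaKO over wt, with exact 95% counting intervals, the median of all compared genes (dashed) and 1.5-fold lines (dotted). The members other than Ccl7 lie between -0.35 and 0.34, and Ccl7 stands at 2.60 on 95 GlaKO and 8 wt UMIs.

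Tnf, Ccl4, Nfkbiz and Nfkbia were the well-counted members with the highest ratios. Tnf stood at 550 CPM in GlaKO and 433 CPM in wt microglia, a log2 ratio of 0.34 (95% interval 0.24 to 0.45), Ccl4 at 2634 and 2163 CPM, 0.28 (0.24 to 0.33), Nfkbiz at 711 and 592 CPM, 0.27 (0.18 to 0.36), and Nfkbia at 2699 and 2257 CPM, 0.26 (0.21 to 0.30). Ccl3 had a log2 ratio of 0.18 (0.10 to 0.26) and Il1a of 0.12 (0.04 to 0.19). Il1b, at 0.02 (-0.13 to 0.17), and Ccl2, at -0.12 (-0.33 to 0.10), did not differ beyond counting error. With cells thinned to 1000 UMIs, however, the Il1b ratio was 0.60 (0.15 to 1.07). In the largest cluster at resolution 2.0, of 498 GlaKO and 274 wt cells, Il1b stood at 96.6 CPM in GlaKO and 57.9 CPM in wt cells. In the high cluster, of 94 GlaKO and 80 wt cells, it stood at 856 and 742 CPM, and in the shallow one at 146 and 101 CPM. The smallest cluster had 0 GlaKO and 1 wt Il1b UMI. The part of cluster shares in the ratio over all microglia was not tested. Ccl12 was lower, at 239 CPM in GlaKO and 304 CPM in wt microglia, a log2 ratio of -0.35 (-0.48 to -0.21), and 1 wt cell held 21.3% of its wt UMIs. With the highest cell of each library left out, the Ccl12 ratio was -0.17 (-0.32 to -0.02). When the microglial clusters were given equal weight, Ccl3 had -0.22, Ccl12 0.16, Ccl4 0.01 and Ccl2 -0.53. The smallest of these clusters had only 24 GlaKO and 18 wt cells. When 5 parts of cell depth were given equal weight, Il1a had 0.01 and Nfkbiz and Nfkbia each had 0.14.

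The Ccl7 difference came from 2 cells. Of the 95 GlaKO UMIs, 58 lay in 1 cell and 32 in another, with 6315 and 8865 UMIs in all. Both carried the microglial gene P2ry12, at 28 and 24 UMIs, and had no Mrc1, Pf4 or Ms4a7 UMI. The share of microglia with a Ccl7 UMI was 0.831% in the GlaKO and 0.909% in the wt library. The counting interval of the log2 ratio, 2.60 (1.56 to 3.85), takes UMIs as independent and does not cover this spread between cells. With the highest Ccl7 cell of each library left out, it was 1.91 (0.56 to 3.62).

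The fewer cells without any member UMI in the GlaKO library and the higher ratios went with other lists. Summed immediate-early genes stood at 51098 CPM in GlaKO and 47538 CPM in wt microglia and summed heat-shock genes at 8838 and 7744 CPM, while summed homeostatic genes were level at 28280 and 28220 CPM. Of 23 immediate-early genes compared, 22 were higher in GlaKO microglia, 17 by their interval, and of 13 heat-shock genes 12 were higher, 10 by their interval. Of all 7130 genes compared, 7.41% had an interval above equal levels. Intervals narrow with depth, and these lists had 240800 and 41649 UMIs in GlaKO microglia, so such counts are no measure of size. Hspa1b, a heat-inducible chaperone, had a log2 ratio of 0.98 (0.82 to 1.14) and Nr4a1, an orphan nuclear receptor, 0.46 (0.31 to 0.61). The part of these lists in the member ratios was not tested.

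Other chemokines and their receptors gave a mixed picture. Of 6 other chemokines compared in microglia, 5 were higher in the GlaKO library and 1 lower. Cxcl10, an interferon-inducible ligand of CXCR3, stood at 89.5 CPM in GlaKO and 37.5 CPM in wt microglia, a log2 ratio of 1.26 (0.93 to 1.60). Ccl6 had a log2 ratio of 0.56 (0.37 to 0.75) and Cxcl2, a neutrophil attractant, 0.49 (0.15 to 0.84), whereas Ccl9 was lower at -0.41 (-0.68 to -0.13). Among 10 receptors 7 were higher and 3 lower, led by Ccrl2, an atypical receptor for chemerin, at 272 CPM in GlaKO and 167 CPM in wt microglia, 0.71 (0.54 to 0.87). Of 11 other cytokines 5 were higher and 6 lower: Il33, an alarmin that oligodendrocytes and astrocytes are known to make, stood at 1.13 (0.47 to 1.86) on 99 GlaKO and 23 wt UMIs, Osm at 0.43 (0.08 to 0.80), and Il6, a classic product of the NF-kB response, at -0.49 (-0.94 to -0.04). Oligodendrocytes were 29.6% of GlaKO and 15.7% of wt cells and astrocytes 9.71% and 7.24%. The part of free RNA in the Il33 ratio was not tested. Counting intervals lay above equal levels for 3 of these chemokines, 3 receptors and 3 cytokines, against 7.41% of all genes. They lay below for 1, 2 and 2, against 8.64%.

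The rest of the NF-kB pathway did not share the direction of the members. Of 17 NF-kB subunits, kinases and inhibitors compared, 7 were higher and 10 lower, with a median log2 ratio of -0.04, and of 20 target genes 10 were higher and 10 lower, with a median of -0.00368. Nfkbid, another nuclear inhibitor, had a log2 ratio of 0.24 (0.06 to 0.41) and Nfkbil1 of -0.38 (-0.72 to -0.04). Plek, the phagocyte protein pleckstrin, stood at 854 CPM in GlaKO and 591 CPM in wt microglia, 0.53 (0.44 to 0.62), and Plaur, the urokinase receptor, at 36.9 and 49.1 CPM, -0.41 (-0.76 to -0.06). Of 12 inflammasome and cytokine-processing genes 2 were higher and 10 lower, with Nlrp3, the sensor of the inflammasome that activates caspase 1, at 256 CPM in GlaKO and 291 CPM in wt microglia, -0.19 (-0.32 to -0.05). Disease-associated genes of microglia were lower in 11 of 14, with Spp1 at 78.7 CPM in GlaKO and 619 CPM in wt microglia and Lpl at 26.7 and 89.9 CPM. Interferon-stimulated genes were lower in 5 of 7, with Ifitm3 at 26.5 CPM in GlaKO and 49.1 CPM in wt microglia. By their intervals 9 disease-associated, 3 interferon-stimulated and 1 of the inflammasome and processing genes were lower, against 8.64% of all genes. The median log2 ratio over the 7130 genes compared was -0.02.

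Outside microglia the members gave other genotype ratios. In border macrophages Ccl4 was at 505 CPM in GlaKO and 3038 CPM in wt cells, a log2 ratio of -2.59 (-2.85 to -2.33), and Ccl3 at 330 and 668 CPM, -1.01 (-1.39 to -0.64). In the cells with at least 3 border markers the ratios were -2.00 for Ccl4, -0.74 for Ccl3, -0.93 for Ccl7 and 1.10 for Ccl12. These rest on 24 GlaKO and 19 wt cells, in which single cells carried large parts of the UMIs. Nfkbia was lower in GlaKO oligodendrocytes, at 148 CPM against 224 CPM in wt oligodendrocytes, a log2 ratio of -0.59 (-0.71 to -0.48), in T cells at -0.63 (-0.85 to -0.40) and in endothelial cells at -1.15 (-1.57 to -0.75). The endothelial cells of the libraries lay mostly in different clusters, with 35 GlaKO and 28 wt cells in 1 cluster and 4 GlaKO and 77 wt cells in the other.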

How the data were processed

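Each of 2 libraries (10x Genomics 3' v3.1 chemistry, per the labels) came as a matrix of UMI counts per gene and cell, deposited by the authors. The submitters' processing notes name the build mm10, Seurat 4, R 4.1.3 and Cell Ranger 6.0.1, and no filter on barcodes or strand setting is stated there. Counts were used as deposited. All barcodes had at least 500 genes and at most 20% mitochondrial UMIs. Scrublet marked 59 GlaKO (1.29%) and 26 wt barcodes (0.478%), which were removed, and so few wt calls leave it doubtful that doublets were found in that library.

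Cells were scaled to 10000 counts, and both libraries were clustered together on 2000 variable genes with 138 inflammatory and immediate-early genes held out (30 principal components, 15 neighbours, Leiden resolution 1.0, scanpy 1.11.5, Python 3.11.15, scipy 1.17.1). A cluster took a name where at least 3 markers were found in at least 10% of its cells with a mean log2 fold of at least 1.0. Where its 10 leading genes held markers of another type, those of the name had to be more numerous. Shallow clusters with none of the name's markers among these genes stayed unnamed. A cluster of 60 GlaKO and 65 wt cells, best matched by fibroblast markers, stayed unnamed and was left out of the ranking of classes. Levels are summed UMIs per 1000000 UMIs of a class (CPM). Genes were compared from 100 summed UMIs in microglia and 20 in the border comparison, and called at 1.5-fold and 2-fold. Shares carry exact Clopper-Pearson, levels exact Poisson and ratios exact conditional binomial 95% intervals. With 1 library per genotype there was no test. Distribution and correlations used cells thinned to 1000 UMIs. TMM scaling came from edgeR 4.0.16 in R 4.3.3. Where a class had 0 UMIs, its limit was set at 3 counts.

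The members, the other gene lists and the markers were chosen with earlier results of these data known. All 10 members are named, and of each other list genes among the 3 highest and 3 lowest ratios in microglia. For likeness of pattern, the 8 highest correlations are named. The finer clustering at resolution 2.0 is a description and was compared by no test. Ratio intervals were tested on simulated Poisson counts, which leave out the spread between cells, so that test does not bear on this spread. The thinning was checked on microglia of these data.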

Additional observations from a re-analysis of the deposited data

Results flagged for a closer look

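Several members had a ratio of GlaKO over wt in another class that was opposite in sign to microglia, with both counting intervals away from 0 on the log2 scale. None of these differences between classes was tested, since there was 1 library per genotype. In border macrophages the log2 ratio was -1.01 for Ccl3, -2.59 for Ccl4, -1.24 for Ccl7, -0.996 for Tnf and -0.358 for Nfkbiz, while the microglial ratios of the same genes lay between 0.18 and 2.60. The ratio of 2.60 is that of Ccl7, with 58 and 32 of its 95 GlaKO UMIs in 2 microglia. The GlaKO and wt border cells numbered 48 and 35, of which 24 and 19 had at least 3 border markers. Of the GlaKO border cells 17 had a doublet score in the top 4% of their library, against 3 of the wt cells. A single cell held 51.3% of the Ccl4 UMIs of GlaKO border cells.

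In T cells Ccl3 had -2.09, Ccl4 -0.155 and Nfkbia -0.625, and 1 wt T cell held 67.2% of the Ccl3 UMIs of its class. Nfkbia, the inhibitor of NF-kB, was also lower in GlaKO oligodendrocytes, at -0.594, and in endothelial cells, at -1.15, where 39 GlaKO and 105 wt cells were counted, of which 35 GlaKO cells lay in 1 cluster and 77 wt cells in another. Within microglia, the shallow cluster of 107 GlaKO and 68 wt cells had -0.76 for Ccl3 and -0.327 for Ccl4, against 0.18 and 0.28 over all microglia. Median depth in that cluster was 2051 UMIs in GlaKO and 1889.5 UMIs in wt cells, and its part in the difference was not tested.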

How the results depend on the processing

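With 1 library per genotype, depth limits only the counting error, and neither animals nor preparations could be compared. No paired analysis was possible because each genotype had 1 library. Of 135 alternative values for counts, medians, shares and correlations, 124 kept the value within the set limits and 11 moved. Of 369 values for single members, 269 were close to the value reported, 94 moved and 6 reversed. With equal weights for the microglial clusters, the log2 ratio of GlaKO over wt was -0.22 for Ccl3 and 0.16 for Ccl12. Without the top 4% of doublet scores and with the rest clustered anew, the log2 ratio of border macrophages over microglia in the GlaKO library was -1.63 for Ccl2 and -0.23 for Ccl12. The number of members at least 2-fold higher in GlaKO border macrophages was then 2, and Ccl4 in the wt library had -0.084. With each library clustered alone, Ccl4 in the wt library had -0.17. The number of members at least 1.5-fold higher in GlaKO microglia was 2 after thinning to 1000 UMIs, with Il1b at 0.60 beside Ccl7, and 0 with a minimum of 500 UMIs, which leaves out Ccl7. After thinning, 1 member was at least 2-fold lower in wt border macrophages. Without thinning, the top 10% of microglia held 40.4% of GlaKO and 45.6% of wt member UMIs, and the correlation with immediate-early genes was 0.65 and 0.71. Pearson's correlation of log counts was 0.38 in the GlaKO library. In the largest microglial cluster alone, an alternative chosen after seeing the data, as was leaving out shared barcodes, the top 10% held 33.0% in the GlaKO and 37.2% in the wt library. TMM scaling, whose log2 shift is subtracted from each log2 ratio, had shifts of -0.02 in microglia and of -0.16 in the GlaKO and -0.14 in the wt border comparison. The cause of these differences was not tested.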
